A study of Mus musculus with 3 samples.

Results

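The genes described here encode 9 receptors through which myeloid cells sense chemokines and other chemoattractants: C5ar1, Cxcr4, Ccr1, Ccrl2, Ccr2, Ccr7, Fpr1, Fpr2 and Cx3cr1. They were chosen by symbol, and they are 9 of the 55536 annotated genes in the tables. The samples were cytosolic RNA of BMDM (bone marrow-derived macrophages, which are grown from mouse marrow), sequenced after removal of ribosomal RNA. There was 1 group of 3 libraries, biological replicates 1, 2 and 3, all from the inbred strain C57BL/6J. The labels place each at 0 minutes of exposure to lipid A at 100 ng/ml. Lipid A is the endotoxin component sensed by the receptor TLR4. The labels name no genetic change, give sex and age as not collected, and carry 1 donor label for all 3 libraries. Nothing in them separates cultures from animals, so each SD measures the spread between these libraries, which may be technical. With 1 group there is no control to set the levels against, and an exact test over 3 libraries cannot go below a p of 0.25.

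Chemoattractant receptors are G protein-coupled receptors of the plasma membrane. A bound ligand makes the receptor release an inhibitory G protein, whose free beta-gamma subunits drive actin remodelling toward the source of the ligand. Receptor kinases and arrestins then silence and internalise the receptor. In mice, CCR2 is known for bringing inflammatory monocytes out of the marrow, CX3CR1 for marking patrolling monocytes and many resident macrophages, CCR7 for leading dendritic cells and T cells to lymph nodes, and CXCR4 for holding precursors in the marrow. C5aR1 and the formyl peptide receptors guide phagocytes to complement fragments and to bacterial or mitochondrial peptides. CCRL2 stands apart, since it binds the attractant chemerin and presents it to other cells without known signalling.

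A short stretch of coding sequence just inside the membrane is given for all 9 genes because Ccrl2 differs from the others there. Each line holds 27 coding bases of mm10, 5′ to 3′ on the gene's strand, with the 3 codons at the position of the aspartate-arginine-tyrosine motif in capitals. The motif contacts the G protein in this receptor class.
C5ar1, chr7:16248677-16248703, minus strand: agtgccGACCGTTTCctgctggtgttc
Cxcr4, chr1:128589500-128589526, minus strand: agcctgGACCGGTACctcgctattgtc
Ccr1, chr9:123964084-123964110, minus strand: acgattGACAGATACctggccattgtc
Ccr2, chr9:124106126-124106152, plus strand: acaattGATAGGTACttggctattgtt
Ccr7, chr11:99145618-99145644, minus strand: agcattGACCGCTACgtagccatcgtc
Cx3cr1, chr9:120051936-120051962, minus strand: agcatcGACCGGTACcttgccatcgtc
Fpr1, chr17:17877318-17877344, minus strand: gcactgGACCGCTGTatttgtgttctg
Fpr2, chr17:17893101-17893127, plus strand: gccttgGACCGCTGCatttgtgttctg
Ccrl2, chr9:111056015-111056041, minus strand: cttgtgCAAGGATACagggtgttttcc
In Cxcr4, Ccr1, Ccr2, Ccr7 and Cx3cr1 the codons read aspartate, arginine and tyrosine. C5ar1 has a phenylalanine codon at the third place, and Fpr1 and Fpr2 have cysteine codons there. In Ccrl2, codons 132 onward read glutamine, glycine and tyrosine, so neither the aspartate nor the arginine is encoded.

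Levels are given in TPM (transcript abundance scaled by length to a fixed total per library), with mean ± SD over n = 3 libraries, and can therefore be compared between genes. C5ar1, the receptor for the complement fragment C5a (chromosome 7, 16246743 to 16259540, minus strand), stood highest. It had 69.9, 57.8 and 64.1 TPM in replicates 1, 2 and 3, or 63.9 ± 6.08. Cxcr4, the receptor for the chemokine CXCL12 (chromosome 1, 128588199 to 128592293, minus strand), had 39.9, 30.2 and 29.8 TPM in the same order, or 33.3 ± 5.69. Both genes stood well above the other 7 in every library, and their ranges did not overlap. C5ar1 ranked 532 and Cxcr4 ranked 1057 by mean TPM among the 9023 protein-coding genes with at least 1 TPM in all 3 libraries.

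The middle of the range was made up of 3 genes on chromosome 9. Ccr1, a receptor for CCL3, CCL5 and other inflammatory chemokines (123962124 to 123968692, minus strand), had 9.98, 7.34 and 9.46 TPM, or 8.93 ± 1.40. Ccrl2, the chemerin-presenting receptor (111054486 to 111057519, minus strand), had 6.61, 4.51 and 4.13 TPM, or 5.08 ± 1.34. Ccr2, the receptor for CCL2 (124101950 to 124113557, plus strand), had 3.57, 2.40 and 2.86 TPM, or 2.94 ± 0.589. Each of these genes was higher than the next in 3 of 3 libraries, and no neighbouring ranges overlapped. In read support they were well measured, with expected counts from 506 for Ccrl2 in replicate 1 to 2724 for Ccr1 in replicate 3.

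The remaining 4 genes stayed below 1 TPM in every library. Ccr7, the receptor for CCL19 and CCL21 (chromosome 11, 99144196 to 99155077, minus strand) had 0.39, 0.27 and 0.41 TPM in replicates 1, 2 and 3, or 0.357 ± 0.0757, on 32, 40 and 80 counts. Fpr2, a receptor for formyl peptides and annexin A1 (chromosome 17, 17887824 to 17893952, plus strand) had 0.44, 0.15 and 0.22 TPM, or 0.270 ± 0.151, on 15, 11 and 19 counts. Fpr1, a receptor for bacterial formyl peptides (chromosome 17, 17876471 to 17883940, minus strand) had 0.12, 0.17 and 0.11 TPM, or 0.133 ± 0.0321, on 6, 16 and 13 counts. All 4 genes had reads in every library, so they were low rather than without reads, and protein-coding mRNAs as a whole took only 23.3 ± 2.54% of TPM in this ribosome-depleted RNA. Cx3cr1, the fractalkine receptor (chromosome 9, 119901616 to 120069879, minus strand), had 0.14, 0.09 and 0.10 TPM, or 0.110 ± 0.0265, on 23, 26 and 38 counts. The low genes were not ordered beyond their spread: Ccr7 and Fpr2, Fpr2 and Fpr1, and Fpr1 and Cx3cr1 each changed places in at least 1 library. In CPM (counts scaled to library size), Fpr1 in replicate 1 had 0.228, with an exact 95% Poisson interval of 0.0837 to 0.496 that covers counting error only. In bulk RNA, fewer cells of a type and less RNA per cell cannot be told apart.

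**Figure D1:**
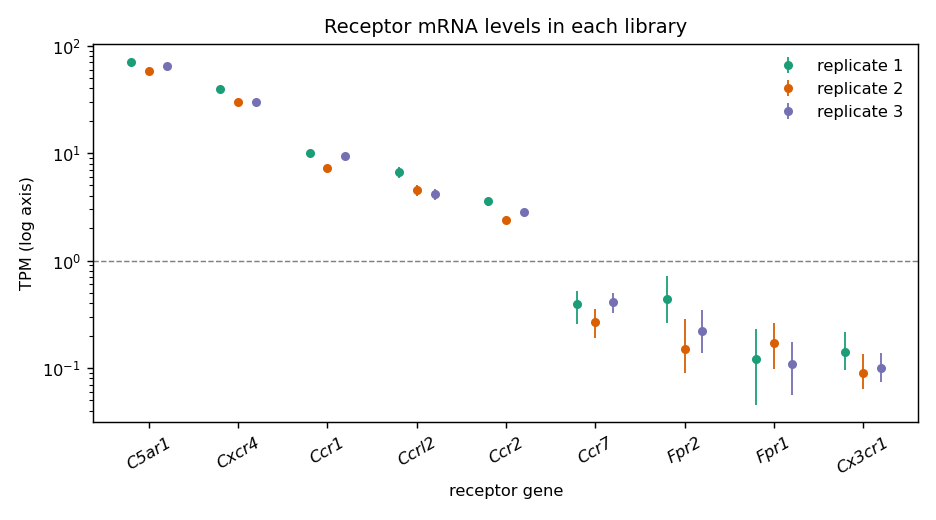
TPM of the 9 receptor genes in each library, on a log axis; coloured points are replicates 1 to 3, bars are the deposited credibility bounds within a library (level not given in the file header), and the dashed line is 1 TPM. C5ar1 and Cxcr4 sit at 29.8 TPM or more, Ccr1, Ccrl2 and Ccr2 between 2.40 and 9.98 TPM, and the other 4 genes at 0.44 TPM or less.

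A step separated the detected from the undetected genes. Ccr2, the lowest of the detected genes, exceeded Ccr7, the highest of the others, 8.34 ± 1.19-fold (SD over the 3 within-library ratios). Smaller steps separated the upper genes: C5ar1 exceeded Cxcr4 1.94 ± 0.201-fold, Cxcr4 exceeded Ccr1 3.75 ± 0.526-fold, Ccr1 exceeded Ccrl2 1.81 ± 0.421-fold and Ccrl2 exceeded Ccr2 1.72 ± 0.244-fold. With detection set at 1 TPM in all 3 libraries, 5 of the 9 receptor genes were detected, beside 41.0% of the 22028 protein-coding genes. At a threshold of 5 TPM the count was 3, namely C5ar1, Cxcr4 and Ccr1, beside 23.9% of protein-coding genes. With TPM rescaled over protein-coding genes alone, 6 receptor genes passed 1 in all 3 libraries, Ccr7 being added, beside 47.4% of protein-coding genes.

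Together the 9 genes summed to 131, 103 and 111 TPM in replicates 1, 2 and 3, or 115 ± 14.4. C5ar1 alone held 55.7 ± 2.18% of that sum and Cxcr4 28.9 ± 1.87%. Ccr1 held 7.75 ± 0.695%, Ccrl2 4.38 ± 0.666% and Ccr2 2.54 ± 0.198%. A complement receptor and a homeostatic chemokine receptor thus held most of the receptor mRNA, and the inflammatory chemokine receptor genes Ccr1 and Ccr2 a small part. The 9 genes took 0.0423 ± 0.00424% of all counts assigned to genes.

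The libraries carried the transcripts of macrophages. All 8 macrophage markers were detected, led by Lyz2 (lysozyme, 4792 ± 1020 TPM), Cd68 (a lysosomal glycoprotein, 663 ± 66.5 TPM) and Csf1r (the growth factor receptor of the lineage, 254 ± 32.6 TPM). Of 9 neutrophil markers 2 were detected, Csf3r (13.7 ± 2.57 TPM), the receptor for granulocyte colony-stimulating factor, and Ngp (1.83 ± 0.506 TPM), a granule protein gene. The granule genes Ltf, Elane, Mpo and Camp were below 1 TPM in every library, Ly6g had 0 counts throughout, and the list summed to 18.3, 12.7 and 17.9 TPM. Of 7 dendritic cell markers 1 was detected, the integrin gene Itgax (1.35 ± 0.196 TPM), and none of 7 lymphocyte markers was. Depth was 26318761, 41897257 and 56290298 gene counts in replicates 1, 2 and 3.

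Monocyte markers were present at low levels. Of 6 listed genes 4 were detected, led by F13a1 (coagulation factor XIII subunit A, 14.4 ± 5.42 TPM), Plac8 (3.47 ± 1.54 TPM) and Chil3 (3.38 ± 0.947 TPM), while Vcan and Fn1 were below 1 TPM in every library. The list summed to 33.9, 18.8 and 19.6 TPM in replicates 1, 2 and 3. Ccr2, itself a gene of classical monocytes, and Ccrl2 were likewise highest in replicate 1 in TPM, as were 82.6% of detected protein-coding genes. Whether remaining monocytes contributed to their levels was not tested.

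Set among the rest of their families, the 9 genes included the upper chemokine receptors but not the highest chemoattractant receptors. Their median of mean levels was 2.94 TPM, against 0.0167 TPM over 35 other listed receptor genes, of which 8 were detected, and 0.14 TPM over all protein-coding genes. The 9 genes and the other lists were chosen with earlier results of these data known, so the difference between their medians only describes that choice. C3ar1, the receptor for the complement fragment C3a, had 206, 151 and 185 TPM, above C5ar1 in every library. Ptafr, the receptor for platelet-activating factor, had 104, 76.6 and 80.7 TPM and was also above C5ar1 in every library. The next were Cmklr1, the signalling chemerin receptor (15.1 ± 3.32 TPM), the sphingosine 1-phosphate receptor genes S1pr2 (10.05 ± 1.63 TPM) and S1pr1 (8.80 ± 0.913 TPM), and Cysltr1, a leukotriene receptor gene (3.27 ± 1.09 TPM). C5ar2, which encodes the alternative C5a receptor that does not couple to G proteins, stood at 1.37 ± 0.212 TPM. Gpr183, an oxysterol receptor gene, reached 1 TPM in replicates 1 and 3 but had 0.95 TPM in replicate 2.

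Among 13 other chemokine receptor genes, 1 was detected. It was Cxcr3, the receptor for interferon-induced chemokines, which stood at 2.03 ± 0.234 TPM, below Ccr2 in every library. Ccr3, an eosinophil receptor, passed 1 TPM in replicate 3 alone, at 1.11. None of the 5 listed genes for atypical receptors, a class that scavenges chemokines without G protein signalling, was detected, and 3 of them had 0 counts in every library.

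**Figure D2:**
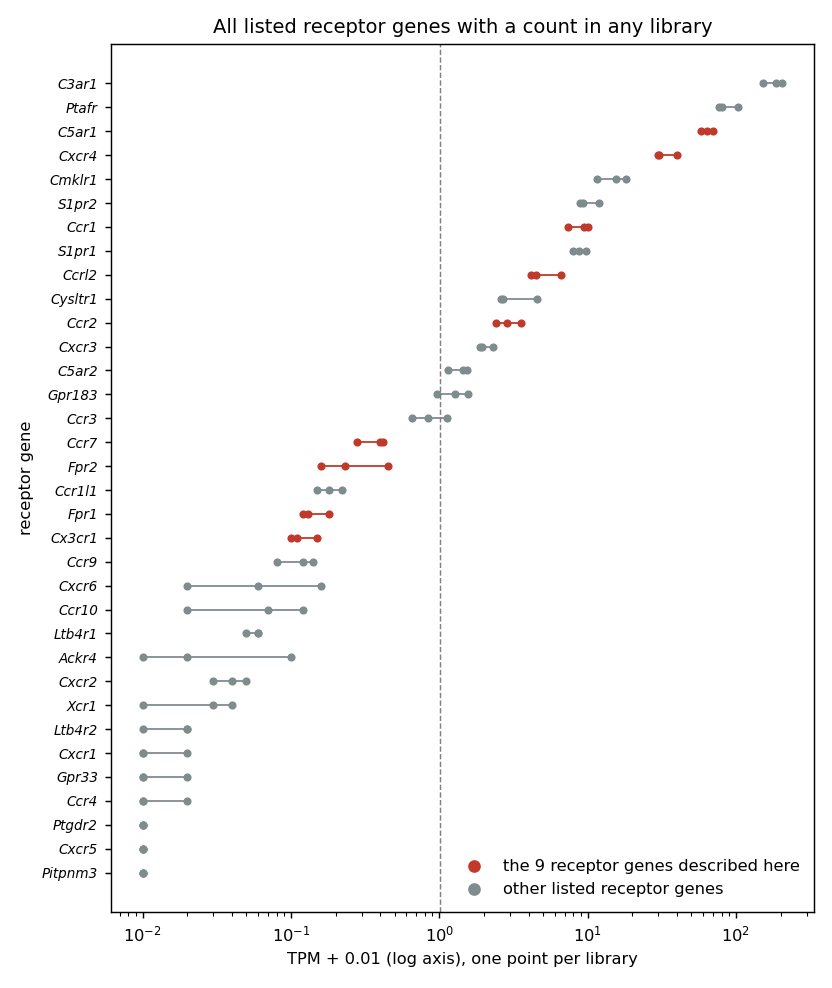
TPM + 0.01 on a log axis for every listed receptor gene with a count in any library, with 1 point per library joined by a line; red marks the 9 genes described here and grey the other listed receptors, and the dashed line marks 1 TPM. C3ar1 and Ptafr lie above C5ar1, and Cxcr4 lies above every other listed chemokine receptor gene.

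Neighbouring genes had unlike levels at some loci and were all low at others. Ccr1 and Ccr2 lie in a cluster of chemokine receptor genes on chromosome 9, and levels in that cluster ranged from 8.93 TPM for Ccr1 to 0.0167 TPM for Xcr1, a dendritic cell receptor. Between Ccr1 and Ccr2 lie Ccr1l1, 8.55 kb from Ccr1 and at 0.173 ± 0.0351 TPM, and Ccr3, at 0.863 ± 0.232 TPM. On the other side of Ccr1, Cxcr6 (0.0700 ± 0.0721 TPM) and Ccr9 (0.103 ± 0.0306 TPM) were low, so the cluster held both detected and undetected genes. On chromosome 7, C5ar2 lies 2.59 kb from C5ar1, whose level was far higher at 63.9 TPM. Ccr8, 22.2 kb from Cx3cr1, had 0 counts in every library. The same held for Fpr3, whose span overlaps that of Fpr2 on the same strand, and for Fpr-rs4, 128 kb from Fpr2.

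Shared sequence limits some of these values. Of the 50-base words in the transcripts of each gene, none of those of C5ar1, Cxcr4, Ccr1, Ccrl2 and Ccr7 occurs in a transcript of another gene. Fpr2 shares 31.5% of its words, mostly with Gm5966, a pseudogene that was given 0 counts in all 3 libraries. Fpr3, whose coding sequence is 88.1% identical to that of Fpr2, was given none either. Ccr2 shares 1.91%. Its expected counts of 561.2, 664.17 and 1065.36 were the only ones among the 9 genes that were not whole numbers (tolerance 0.005), and 72.7% of protein-coding genes with counts in every library had whole counts. The gene model of Cx3cr1 overlaps 9 other annotated genes, but its length comes from Cx3cr1-202, which was given 0 counts, whereas Cx3cr1-201 runs from 120068296 to 120048683. Whether strand was used in counting is not stated, so reads from an antisense gene there cannot be told apart.

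The annotation lists 20 transcripts for the 9 genes, and 18 of them held at least 5% of their gene's TPM in some library. Ccr1, Ccr7 and Fpr1 have 1 annotated transcript each, and Cx3cr1 was assigned to Cx3cr1-201 alone. Of the 4 detected genes with more than 1 transcript, none changed its leading transcript between libraries, beside 8.73% of detected protein-coding genes with more than 1 transcript. Fpr2, which was not detected, did change, with Fpr2-201 at 29.9, 85.4 and 45.8% in replicates 1, 2 and 3 on no more than 19 counts.

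Cxcr4 had the steadiest split. Cxcr4-201, with a complete coding sequence, held 85.5, 86.1 and 84.9% of the gene in replicates 1, 2 and 3, and Cxcr4-202 held 14.5, 13.9 and 15.1%. The SD of 0.565 percentage points was the smallest among the 4 detected genes. Both transcripts join the first to the second exon near the start codon, and they differ there by 2 codons. The 6 bases in capitals are present in Cxcr4-201 and absent from Cxcr4-202, each read from the start codon into exon 2, where exon 1 ends at 128592189 or 128592195 and exon 2 starts at 128589901.
Cxcr4-201: atggaaccgatcagtGTGAGTatatacact
Cxcr4-202: atggaaccgatcagtatatacact
Cxcr4-202 is modelled over 902 bases with an incomplete coding sequence of 818 bases, against 1805 bases for Cxcr4-201, so reads beyond its end can be given to Cxcr4-201 alone.

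C5ar1 was divided among 3 transcripts and less evenly between libraries. C5ar1-201 held 59.1, 62.1 and 71.95%, C5ar1-202 held 35.0, 16.7 and 15.7%, and C5ar1-203 held 5.94, 21.2 and 12.3% in replicates 1, 2 and 3. C5ar1-201 led in every library, and C5ar1-202 was highest in replicate 1. C5ar1-201 and C5ar1-202 carry the same 1053 coding bases but begin at different places, 16259540 and 16259338. C5ar1-203 is a partial model of 674 bases that begins at 16259540, as C5ar1-201 does. The upstream window of the RefSeq start is printed because it holds both of these starts (GRCm38.p6, the assembly also named mm10, chr7:16259289-16259588, minus strand, 5′ to 3′). The first 10 bases of C5ar1-201, at base 49, and of C5ar1-202, at base 251, are in capitals.
C5ar1: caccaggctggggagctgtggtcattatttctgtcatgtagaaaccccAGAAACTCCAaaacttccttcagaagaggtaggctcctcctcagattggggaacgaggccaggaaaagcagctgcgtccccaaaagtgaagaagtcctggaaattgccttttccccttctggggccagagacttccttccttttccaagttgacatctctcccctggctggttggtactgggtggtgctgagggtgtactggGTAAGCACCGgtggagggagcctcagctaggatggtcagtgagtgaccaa
The window holds the letters AGGAAGT, the core of sites for ETS factors such as PU.1, at bases 61 to 67 and 179 to 185 on the other strand. Among 32851 RefSeq promoter windows of the same length, 9.35% hold AGGAAGT on either strand, and of the 10 windows found for 8 of the receptor genes this was the only one.

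The deposited kallisto-format tables divided C5ar1 differently. There C5ar1-202 led in every library, with 59.5, 44.7 and 48.7% in replicates 1, 2 and 3, and C5ar1-201 held 15.8, 13.5 and 21.02%. C5ar1-203, which shares its start with C5ar1-201, held 24.7, 41.8 and 30.3%. C5ar1 was the only one of the 4 detected genes whose leading transcript differed between the formats in all 3 libraries, beside 4.53% of detected protein-coding genes with more than 1 transcript. Its shares per transcript thus differed with the format, while its summed level was the highest of the 9 genes in both.

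Ccr2 was mostly assigned to a model with no intron. Ccr2-202, a single exon from 124105626 to 124109140, held 64.5, 68.4 and 63.4% of the gene in replicates 1, 2 and 3. The spliced models Ccr2-201, Ccr2-203 and Ccr2-204 held 13.9 ± 4.07, 10.6 ± 1.67 and 10.1 ± 3.29%. All 4 models contain the same 1119 coding bases, so the split concerns the noncoding ends and not the receptor protein. The kallisto-format tables also put Ccr2-202 first in every library, at 53.2 ± 2.78%.

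Ccrl2 was led by Ccrl2-203, with 73.8, 55.2 and 61.2% in replicates 1, 2 and 3. Ccrl2-201, which starts downstream at 111057270 rather than 111057519, held 17.2, 24.95 and 22.7%, and both encode the full 1080 coding bases. Ccrl2-202, a short model with 399 coding bases, held 8.99, 19.9 and 16.1%. Replicate 1 had the highest share of Ccrl2-203, and it was also the library with the highest Ccrl2 level. The window of the leading start is printed for that reason, with the first 10 bases of Ccrl2-203, at base 250, in capitals (GRCm38.p6, chr9:111057469-111057768, minus strand).
Ccrl2: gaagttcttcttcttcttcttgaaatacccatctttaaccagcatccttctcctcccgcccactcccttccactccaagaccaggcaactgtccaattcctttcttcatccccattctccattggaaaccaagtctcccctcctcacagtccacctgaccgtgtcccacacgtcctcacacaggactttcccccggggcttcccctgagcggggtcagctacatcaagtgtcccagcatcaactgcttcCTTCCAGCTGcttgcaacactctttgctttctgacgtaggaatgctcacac

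**Figure D3:**
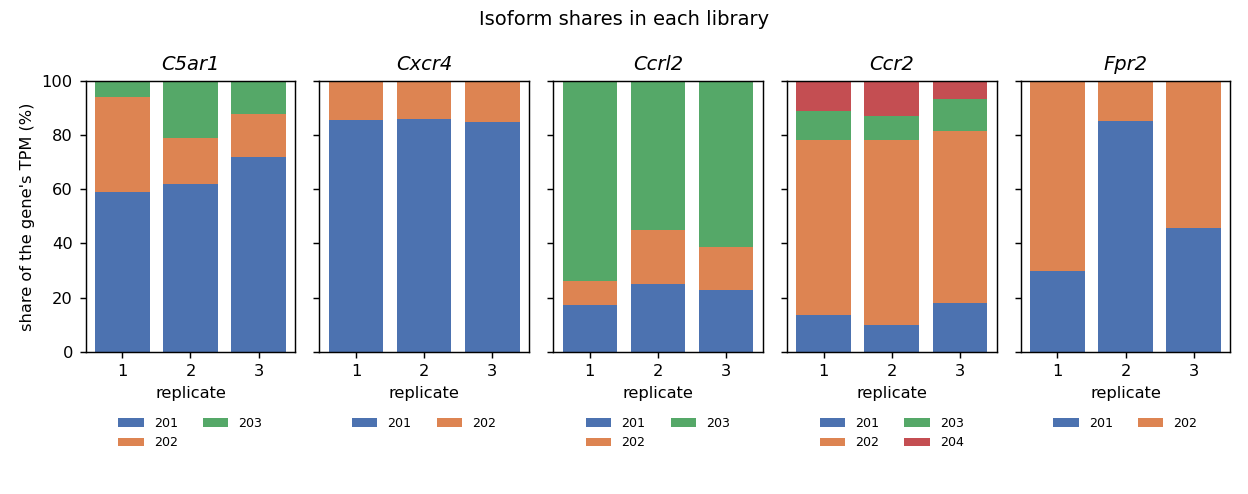
Share of each gene's TPM held by each annotated transcript (stacked bars, %, 1 bar per library) for the 5 genes with more than 1 transcript in use; colours give the transcript number. Cxcr4 keeps nearly the same split in all 3 libraries, C5ar1-202 lies between 15.7 and 35.0%, and Fpr2 varies most, on at most 19 counts.

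Cxcr4 is shown as the contrast to these genes, since its starts lie 3 bases apart and its window holds the letters TATAAA at bases 221 to 226 (GRCm38.p6, chr1:128592250-128592549, minus strand). The first 10 bases of Cxcr4-202, at base 257, and of Cxcr4-201, at base 260, overlap and are in capitals.
Cxcr4: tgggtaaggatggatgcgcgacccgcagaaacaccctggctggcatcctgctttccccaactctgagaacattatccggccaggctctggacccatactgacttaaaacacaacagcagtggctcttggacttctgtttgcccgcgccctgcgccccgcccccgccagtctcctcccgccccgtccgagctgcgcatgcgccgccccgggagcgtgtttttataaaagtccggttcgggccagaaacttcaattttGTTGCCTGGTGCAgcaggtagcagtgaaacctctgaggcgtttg
TATAAA was present on either strand in 13.6% of the 32851 windows, and in the windows of Cxcr4, Fpr1 and Fpr2 among these genes. CACGTG, an E-box sequence found on either strand in 7.15% of all windows, occurred in none of the 10. No window was found for Ccr7.

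Between libraries, the median receptor gene varied more than the median gene past a low-count filter, but not when genes below the filter were counted in. On TMM-scaled log2 CPM, Cxcr4 had an SD of 0.10, C5ar1 0.14, Ccr1 0.18, Ccr2 0.19 and Ccrl2 0.26. The median over the 8 receptor genes past the low-count filter was 0.20, beside 0.12 over all 12413 genes past it, and Fpr1 was left out by the filter. Without the filter the medians were 0.20 over the receptor genes and 0.26 over 22310 genes. Low counts widen the spread, so each gene was also set beside genes within 0.5 log2 CPM of its own level. Ccrl2 varied more than 92.1% of 1820 such genes, Ccr1 more than 87.9% of 1859 and Ccr2 more than 86.0% of 1916. C5ar1 varied more than 73.2% of its peers and Cxcr4 more than 64.3%, and among the low genes the figures were 73.3% for Fpr2, whose SD of 0.47 was the largest of the 8, 45.9% for Ccr7 and 18.1% for Cx3cr1. These percentages describe 3 libraries and are not a test.

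**Figure D4:**
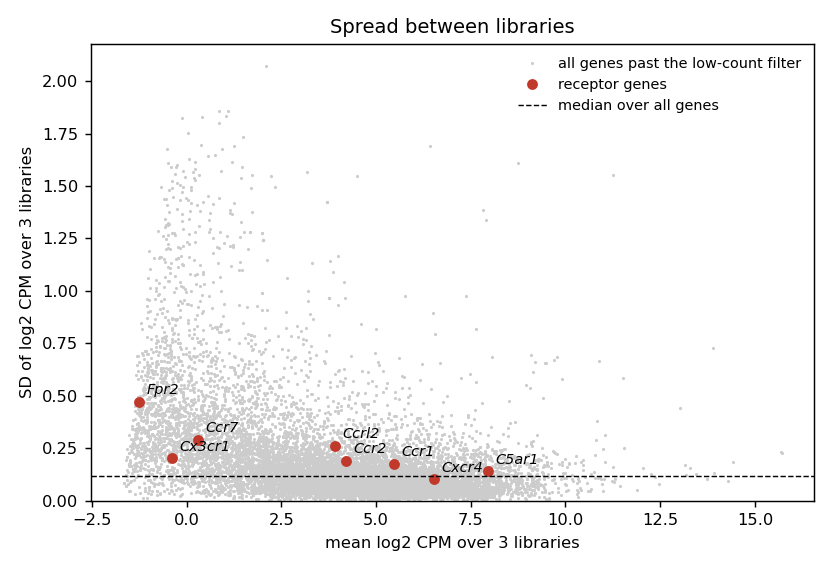
SD of log2 CPM over the 3 libraries against mean log2 CPM for every gene past the low-count filter (grey) and for 8 receptor genes (red); the dashed line is the median over all genes. Cxcr4 at 0.10 lies below the line at 0.12, and the other 7 receptor genes lie above it.

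Which library was highest depended on the scale. In TPM, all 5 detected receptor genes were highest in replicate 1, beside 82.6% of detected protein-coding genes. In CPM, 4 of the 5 were, beside 57.7%, the exception being Ccr1 with 46.7, 38.7 and 48.4 CPM in replicates 1, 2 and 3. When TPM was rescaled over protein-coding genes alone, 3 of the 5 were, beside 30.8%. Ccrl2, Cxcr4 and Ccr2 were those 3, and Ccrl2 had 25.2, 20.5 and 19.0 rescaled TPM. C5ar1 was then highest in replicate 3, at 295 against 266 and 263 in replicates 1 and 2, so its highest library differed between the scales.

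The kallisto-format tables, made from the same libraries, gave lower TPM for all 9 genes. The median detected gene was 2.40, 1.99 and 2.38 times higher in the RSEM-format table than in the kallisto-format table in replicates 1, 2 and 3. For C5ar1 the ratio was only 1.93, 1.57 and 1.98, lower than in 93.0, 93.3 and 90.1% of detected genes. Ccr1 had ratios of 2.56, 2.11 and 2.56, above the median gene in each library. C5ar1 thus held a larger part of the receptor sum in the kallisto-format tables, and the same 5 genes passed 1 TPM there, beside 34.4% of protein-coding genes.

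**Figure D5:**
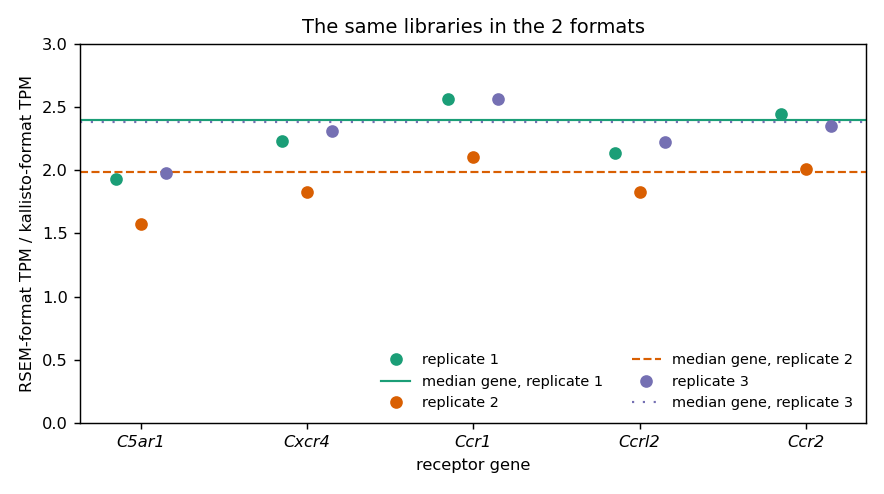
Ratio of RSEM-format to kallisto-format TPM for the 5 detected receptor genes in each library (points), with the median over detected protein-coding genes of each library as a line. C5ar1 lies below the line of its own library in all 3 libraries, and Ccr1 lies above it.

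Most of the listed ligands of these receptors were present in the same libraries. Of 18 ligand genes, 12 were detected, beside the background of 41.0% given above, and the highest were Ccl6, which encodes a mouse ligand of CCR1 (132 ± 28.7 TPM), Anxa1 (125 ± 16.4 TPM), which encodes annexin A1, a ligand of formyl peptide receptors, and Mif (91.5 ± 21.9 TPM), a cytokine that also binds CXCR4. The ligands named next were picked out after their values were seen. Ccl3 (76.9 ± 9.79 TPM) and Ccl5 (28.5 ± 5.14 TPM), ligands of CCR1, and Ccl2 (16.7 ± 2.07 TPM), a ligand of CCR2, were all higher than their receptors in every library. By contrast Hc, which encodes complement C5, had 0 counts in every library, and Cxcl12 had 0, 6 and 11 counts, so the main ligands of the highest receptors, C5ar1 and Cxcr4, were at or near 0. Cx3cl1, for fractalkine, stood at 0.0867 ± 0.0231 TPM, and both CCR7 ligands, Ccl19 and Ccl21a, had 0 counts. Rarres2, for the chemerin that CCRL2 binds, stood at 0.0133 ± 0.0115 TPM.

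Most of the genes that act below the receptors were detected. Of 31 listed genes for G protein subunits, regulators, receptor kinases, arrestins and their effectors, 28 were detected, beside the same 41.0% of protein-coding genes. The highest were Gnai2, which encodes an inhibitory G alpha subunit (150 ± 19.4 TPM), Gng5, a G gamma subunit (114 ± 26.0 TPM), and Rac1, a GTPase of actin remodelling (105 ± 18.2 TPM). Gnai2 was above C5ar1 in every library. The 3 genes short of detection were Gnai1, which had 0 TPM in every library, and the receptor kinase genes Grk5 and Grk3, at 0.957 ± 0.170 and 0.913 ± 0.320 TPM.

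Over the 3 libraries, the protein-coding genes with profiles most like that of C5ar1 were Nucb1, Anxa3 and Syk, at Euclidean distances of 0.043, 0.064 and 0.078 in log2(TPM + 1). Nucb1, which encodes a calcium-binding Golgi protein, stood at 64.3 ± 4.89 TPM. Anxa3 for annexin A3 stood at 62.4 ± 5.92 TPM and Syk, a tyrosine kinase gene, at 62.1 ± 6.23 TPM. The measure takes level and library pattern together over 3 points only.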

How the data were processed

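For each library 3 tables were used. Per the notes deposited with them they refer to mm10 and GENCODE M21; tools and versions are not given in the sources used here. The authors estimated and deposited expected counts per gene or transcript, which need not be whole. The authors scaled these by effective length and library total to TPM, deposited as a maximum likelihood value and as a posterior mean, per the file headers. The authors also scaled them to FPKM per kilobase, per the file headers, which gave no result here. Each transcript's share of its gene was deposited by the authors as a percent, per the file headers. Headers of 2 kinds, those RSEM and kallisto write, name the formats.

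Levels were means ± SD of TPM over 3 libraries. Detection meant at least 1 TPM in all 3. A count of 0 was taken to allow up to 3 counts (about a one-sided 95% limit, lower than the two-sided exact interval would give), or 0.114, 0.0716 and 0.0533 CPM in replicates 1, 2 and 3. Spread came from expected counts rounded to whole numbers in edgeR 4.0.16 (R 4.3.3; TMM, its low-count filter, intercept, prior count 2), tested on simulated data, with DESeq2 1.42.0 size factors as an alternative. The TMM factors were 1.04, 0.992 and 0.971. Library pairs correlated at r of 0.987 to 0.992 across genes, which are not independent replicates, and differed beyond counting noise (chi-square per degree of freedom of 40.6 to 63.8), so none was a duplicate. Sequences were read from GENCODE M21 transcripts and from RefSeq promoter windows of 250 bases before and 50 after a start.

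The receptor genes and all lists were chosen with earlier results of these data known. Text names all 9 receptors; the 3 highest genes per list; family neighbours within 500 kb; other receptors reaching 1 TPM in any library; the 3 genes nearest C5ar1; and transcripts with at least 5% of their gene. Of 130 listed symbols, 1 (Oxer1) was not matched. Some listed genes are not reported here.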

Additional observations from a re-analysis of the deposited data

How the results depend on the processing

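The same 5 receptor genes passed 1 TPM under the posterior mean, the kallisto-format tables and each pair of libraries, and 6 did when TPM was rescaled over protein-coding genes alone, Ccr7 being added, beside 47.4% of protein-coding genes on that scale. With detection at 5 TPM, 3 receptor genes and 5 of the other listed receptors remained. The other listed receptors detected ranged from 6 to 10 under the remaining alternatives, and from 8 to 9 without any 1 library. The summed level was 58.7 TPM in the kallisto-format tables and 493 TPM over protein-coding genes alone, against 115 TPM. Rescaling over protein-coding genes leaves shares as they are by construction. C5ar1 held 59.9% of the sum in the kallisto-format tables. Leaving out 1 library at a time gave sums of 107 to 121 TPM, C5ar1 shares of 54.7 to 56.9% and a median SD of 0.17 to 0.20. Over the other settings the median SD ran from 0.19 to 0.20, and without the low-count filter the median over all genes was 0.26, above that of the receptor genes. The cause of each difference was not tested. The order of the first 5 genes held in each TPM column, and Fpr1 and Cx3cr1 changed places in the kallisto-format tables. Depth limits Ccr7, Fpr1, Fpr2 and Cx3cr1, whose counts were 80 or fewer. No paired analysis was possible because there was 1 group.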
